A study of Mus musculus with 9 samples.

Results

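Amino acid transporters were followed here through 10 genes of the SLC1, SLC3, SLC7 and SLC38 families: Slc38a4, Slc38a3 and Slc38a2, Slc7a2 and Slc7a1, Slc3a2, Slc7a5 and Slc7a11, and Slc1a5 and Slc1a4. They were taken by gene name from a gene-level table of 21870 rows, and each name occurred in 1 row. The samples were livers of wild-type C57 BL6 mice aged 8 weeks, weighing 20 g on average. Control mice had saline. APAP mice had acetaminophen (APAP), an analgesic that injures the liver in overdose, at 500 mg/kg into the peritoneum, and dmPGE2+APAP mice had in addition 300 μg/kg dmPGE2, a stable relative of prostaglandin E2, by the same route 1 h before that dose. Livers were taken 6 h after APAP, with 3 libraries a group. No group with dmPGE2 alone is analysed here.

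Amino acids cross the hepatocyte membrane on carriers that are grouped into systems by their substrates. System A carriers (Slc38a2, Slc38a4) and the system N carrier (Slc38a3) move small neutral amino acids and glutamine with sodium, and the CAT carriers (Slc7a1, Slc7a2) move arginine and lysine. Slc3a2 encodes the heavy chain (4F2hc, CD98) that brings light chains such as Slc7a5, an exchanger of large neutral amino acids, and Slc7a11, the cystine-glutamate exchanger, to the cell surface. Several of these genes are known targets of ATF4, the transcription factor of the amino acid and integrated stress response, and cystine taken up by Slc7a11 feeds the synthesis of glutathione, which APAP's reactive product consumes.

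Promoters were searched for letters of elements that such stress factors bind. Elements outside the windows given below, as in introns, were not looked for. A RefSeq table (GRCm38.p6) held 9 promoters for 6 of the 10 members, each from 250 bases before to 50 bases after a start site. They were searched on both strands for TGATGNAA (the C/EBP-ATF element), TGANTCA (AP-1), TGACNNNGC (the core of the antioxidant response element) and TGACGTCA (the cAMP response element). Of all 32851 promoters in the table, 3.97%, 7.81%, 12.4% and 1.79% held these letters. The searched letters of different elements did not overlap in the members. Of the 6 members with a promoter, 4 had a match to any of the 4 elements. The share of all promoters, or of genes with several promoters, that match any of them was not counted. Whether matches are more frequent in the members than in other genes was thus not tested. The sequences of these 4 follow from 150 bases before to 10 bases after the start site, on the gene's strand, with matches in capitals.
Slc7a11: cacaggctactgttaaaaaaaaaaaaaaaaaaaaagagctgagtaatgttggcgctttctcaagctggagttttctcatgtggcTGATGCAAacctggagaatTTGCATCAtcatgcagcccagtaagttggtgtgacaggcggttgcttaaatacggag
Slc1a4: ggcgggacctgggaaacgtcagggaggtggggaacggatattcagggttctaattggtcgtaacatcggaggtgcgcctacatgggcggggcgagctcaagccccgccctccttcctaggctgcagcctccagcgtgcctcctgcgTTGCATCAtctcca
Slc7a1: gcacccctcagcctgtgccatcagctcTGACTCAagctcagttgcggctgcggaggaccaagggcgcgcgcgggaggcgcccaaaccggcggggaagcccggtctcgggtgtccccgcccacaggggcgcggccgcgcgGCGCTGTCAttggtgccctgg
Slc38a2: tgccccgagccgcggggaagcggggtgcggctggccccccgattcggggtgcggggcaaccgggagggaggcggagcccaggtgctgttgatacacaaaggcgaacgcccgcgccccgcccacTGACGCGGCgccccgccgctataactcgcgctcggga

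These lie on the minus strand of GRCm38 at chr3:50443604-50443763 (Slc7a11), chr11:20332704-20332863 (Slc1a4), chr5:148399895-148400054 (Slc7a1) and chr15:96699719-96699878 (Slc38a2). Slc7a11 held the C/EBP-ATF letters 2 times, once on each strand, starting 66 and 47 bases before the start site. Slc1a4 held the same 8 letters as the second of these across its start site. Slc7a1 held an AP-1 match and, on the opposite strand, an antioxidant core match, and Slc38a2 held an antioxidant core match. The promoters of Slc3a2 (1) and Slc38a4 (3), and the second promoter of Slc7a1, held no match in these windows. A match is a description of the letters, and binding was not measured.

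Levels are given as deposited FPKM (fragments scaled to transcript length and to the mapped fragments of the library), which is per length and so can be set side by side between genes. The depth behind a value is not stated, and the deposited files called read counts were not used as counts. Differences are on the scale of log2(rescaled FPKM + 0.1), where FPKM were rescaled between libraries, and a gene passed at a Benjamini-Hochberg adjusted p under 0.05 in limma over the 11557 genes that reached 0.5 FPKM in 3 or more libraries. Folds of genes near 0.1 FPKM are understated on this scale. For genes, the rescaling added 0.12 to log2 differences of APAP from control, 0.02 to those of dmPGE2+APAP from APAP and 0.14 to those of dmPGE2+APAP from control. Of the 10 members, 9 were tested. Slc7a11 reached 0.5 FPKM in only 2 libraries and was tested apart. The labels do not say that each library is a separate mouse, so p-values measure the spread between these libraries. With 3 against 3, an exact permutation test of a single value cannot go below p = 0.1. In whole liver, fewer cells of a type and less RNA per cell cannot be told apart.

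As a check of the tissue, all 6 hepatocyte markers (Alb, Apoa1, Ttr, Hnf4a, Cps1, Serpina1a) were expressed and none passed in any comparison. Their summed FPKM was 31200 to 34470 in controls, 37810 to 44300 in APAP livers and 38610 to 43070 in dmPGE2+APAP livers. Summed markers of the other cells were at lower levels, and some of their markers were at or near 0. The summed FPKM of 8 neutrophil markers was 2.31 to 6.15, 8.18 to 34.2 and 4.58 to 9.73 in the same groups, and that of 4 platelet markers was 1.60 to 1.89, 13.2 to 16.9 and 3.32 to 7.49. That of 7 Kupffer cell markers was 94.7 to 109, 55.2 to 95.1 and 101 to 106. In APAP livers 3 of 4 tested neutrophil markers and 3 of 3 tested platelet markers were higher than in controls, and no Kupffer cell marker passed. The neutrophil granule genes Mpo and Elane and the surface marker Ly6g reached at most 0.0285, 0.19 and 0.0909 FPKM. In the same order of groups, the summed FPKM of erythroid markers was 251 to 327, 323 to 773 and 243 to 265, and that of stellate cell markers 82.6 to 114.9, 115.2 to 129 and 118 to 135. That of sinusoidal endothelium was 65.9 to 73.8, 69.2 to 88.8 and 85.5 to 87.7, and that of cholangiocytes 13.7 to 30.1, 24.2 to 44.6 and 20.8 to 32.4. Lymphocyte markers summed to 0.993 to 1.56, 0.519 to 0.685 and 0.57 to 0.929, and exocrine pancreas markers to 4.04 to 14.3, 4.11 to 5.41 and 4.94 to 6.52. Of the pancreas markers, Pnlip, Cpa1 and Prss1 were at 0 in every library and Ctrb1 reached at most 0.136 FPKM. The pancreas sum was thus nearly all Cela1 (4.04 to 14.3 FPKM). Of all tested genes, 11.2% were higher in APAP livers than in controls and 8.64% in dmPGE2+APAP livers, which is the share to set beside these marker counts. In APAP livers 2 of 6 endothelial, 1 of 6 stellate, 1 of 4 cholangiocyte and 1 of 3 erythroid markers tested were higher than in controls. In dmPGE2+APAP livers 3 of 3 platelet markers and 1 each of the tested neutrophil, endothelial, stellate and cholangiocyte markers were. The part of these cells in the results below was not tested. Control replicate 3 stood apart from the other controls on the second principal component of all tested genes (-32.7, against 15.7 and 16.2), and results that turn on it are given with and without it.

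The question of the first comparison was which carriers respond to the overdose by 6 h. In APAP livers 4 of the 9 tested members were higher than in controls (Slc7a1, Slc7a5, Slc3a2 and Slc38a2), 1 was lower (Slc38a3) and 4 did not pass (Slc7a2, Slc38a4, Slc1a4 and Slc1a5). Over all tested genes 20.9% passed, 11.2% higher and 9.73% lower. The median log2 difference was 0.52 over the 9 members and -0.02 over all tested genes. Among the 9 tested members, the same 4 and the same 1 were those whose libraries did not overlap between the groups after rescaling, where 19.3% of all tested genes were higher without overlap and 19.8% lower.

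**Figure D1:**
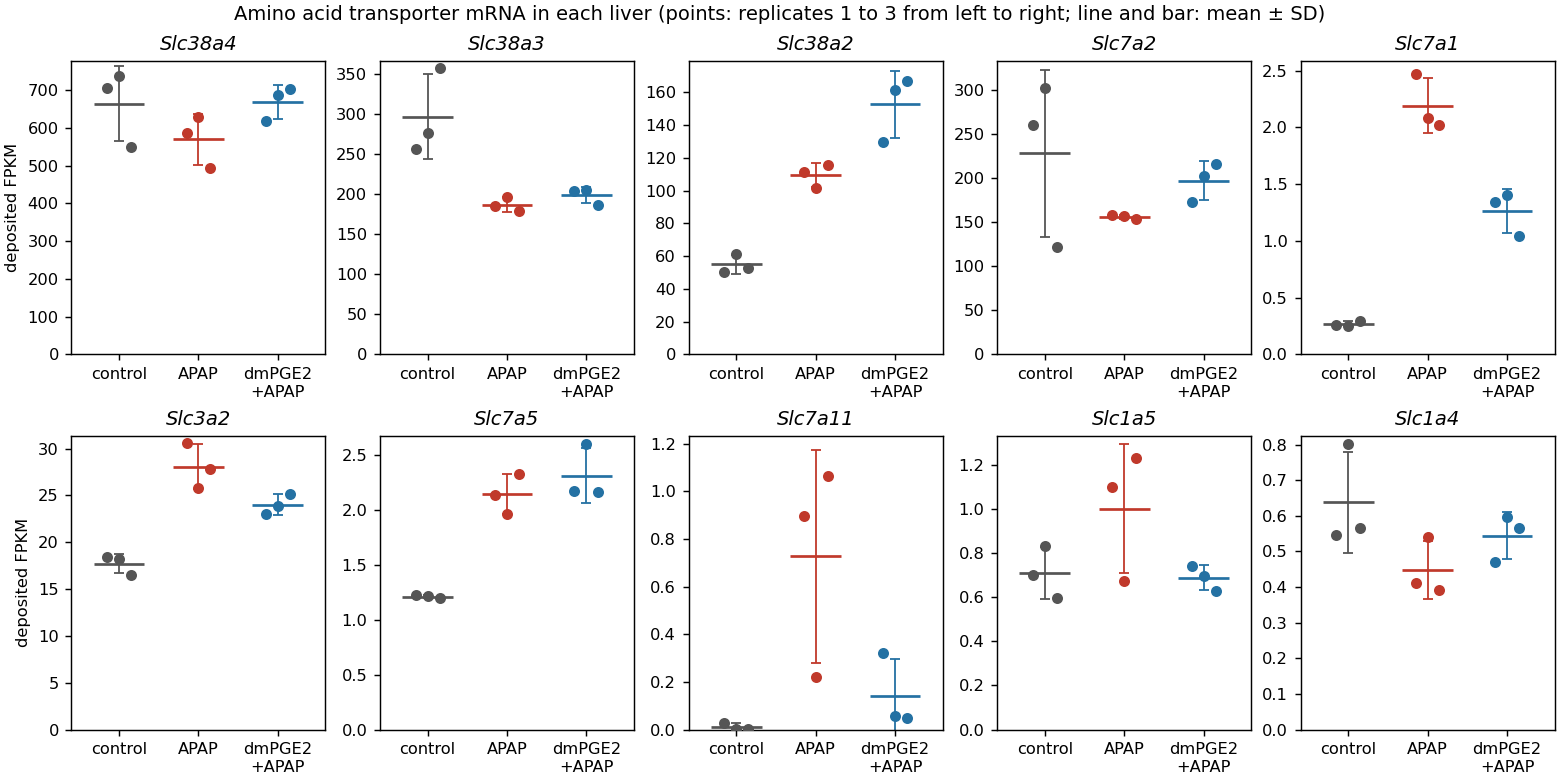
Deposited FPKM of the 10 transporter genes (vertical axes, linear and starting at 0, a separate range for each gene) in the 3 groups; points are libraries, lines and bars are the mean ± SD, cut at 0 where they would go below. All 6 treated libraries lie above all 3 controls for Slc38a2, Slc7a1, Slc3a2, Slc7a5 and Slc7a11, and below them for Slc38a3. The share of all genes that separate in this way was not counted. Between APAP and control alone, after rescaling, 19.3% of all tested genes were higher without overlap and 19.8% lower.

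Slc38a4, a system A carrier abundant in liver (chromosome 15, 96994820 to 97107180), was the most abundant member. Replicates are listed in the order 1 to 3 throughout. Slc38a4 had 705, 736 and 549.9 FPKM in the control livers, 586, 628 and 494 FPKM after APAP and 617, 686 and 701 FPKM after dmPGE2 and APAP. The 3 groups overlapped. APAP livers differed from controls by -0.10 on the log2 scale (95% interval -0.47 to 0.28, limma adjusted p = 0.716), and without APAP replicate 3 the sign turned (0.02). The deposited locus of Slc38a4 reaches past the end of the GENCODE M21 gene (97055956) to 97107180, where an assembled transcript that the authors named Slc38a4-AS1 also ends.

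Slc38a3, the system N carrier that exchanges glutamine in hepatocytes (chromosome 9, 107650634 to 107669530), was at 257, 276 and 357 FPKM in controls. APAP livers had 186, 196 and 178 FPKM, each below every control. The level fell to 0.691 of control (log2 -0.53, SE 0.12, limma adjusted p = 0.0147). Control replicate 3 was the highest control, and without APAP replicate 3 the call was lost (log2 -0.48, adjusted p = 0.0526).

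Slc38a2, the system A carrier that cells induce when amino acids run short (chromosome 15, 96687392 to 96699730), was at 50.6, 61.6 and 52.8 FPKM in controls. It was at 111, 102 and 116 FPKM in APAP livers, so the groups stood well apart. The rise was 2.17-fold (log2 1.12, SE 0.122, limma adjusted p = 0.000534).

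Among the carriers of cationic amino acids, Slc7a2 is the form of the liver and Slc7a1 the form of most other tissues. Slc7a1 (chromosome 5, 148327410 to 148399904) had 0.258, 0.254 and 0.295 FPKM in the controls. After APAP it had 2.47, 2.08 and 2.02 FPKM, and the groups stood far apart. Its rise was the largest of the tested members, 6.62-fold (log2 2.73, SE 0.157, limma adjusted p = 2.65e-05), and it remained a low-level mRNA. It reached 0.5 FPKM in 6 libraries, none of them a control. In a fit of all 17519 genes above 0 in any library it also passed (limma adjusted p = 0.000113). The log2 difference was 1.37 with 1 FPKM added before the log and 3.09 with 0.01 added.

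Slc7a2 (chromosome 8, 40862396 to 40922308) had 260, 303 and 122 FPKM in the controls, against 158, 157 and 154 FPKM after APAP. APAP libraries were nearly equal, while control replicate 3 lay below them and the other controls lay above. With all libraries the difference did not pass (log2 -0.32, 95% interval -1.01 to 0.37, limma adjusted p = 0.49). Without control replicate 3 it did (log2 -0.75, adjusted p = 0.00389), so the call on Slc7a2 turned on that library.

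Slc3a2, the heavy chain (chromosome 19, 8706882 to 8723369), had 18.5, 18.2 and 16.5 FPKM in the controls, against 30.6, 25.8 and 27.8 FPKM after APAP. All APAP libraries were above all controls, and the rise was 1.72-fold (log2 0.78, SE 0.1, limma adjusted p = 0.00121). Slc7a5, the light chain of the large neutral amino acid exchanger LAT1 (chromosome 8, 121881150 to 121907694), was within 1.20 to 1.22 FPKM in controls. It was at 2.14, 1.97 and 2.33 FPKM in APAP livers, a rise of 1.85-fold (log2 0.89, SE 0.112, limma adjusted p = 0.00116).

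Slc7a11, the cystine-glutamate exchanger (chromosome 3, 49892526 to 50443614), was nearly silent in control livers, at 0.0281, 0.00321 and 0.00318 FPKM. In APAP livers it was at 0.895, 0.222 and 1.06 FPKM, with replicate 2 well below the other two. It was the lowest of the 10 members in controls, and all controls were below all APAP libraries. In a fit of all 17519 genes above 0 in any library, of which 14.8% passed in this comparison, Slc7a11 was higher in APAP livers (log2 2.73, SE 0.539, limma adjusted p = 0.0129). Its size rests on the constant added before the log: the log2 difference was 0.75 with 1 FPKM added and 5.08 with 0.01 added. Without APAP replicate 1 or 3 the call was lost (adjusted p = 0.0549 and 0.0635).

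The carriers of alanine, serine, cysteine and glutamine stayed low. Slc1a5 (ASCT2, chromosome 7, 16781340 to 16798274) had 0.699, 0.834 and 0.595 FPKM in the controls, against 1.10, 0.672 and 1.23 FPKM after APAP. APAP replicate 2, also the lowest APAP library for Slc7a11, lay among the controls. The difference did not pass (log2 0.52, 95% interval 0.01 to 1.03, limma adjusted p = 0.13), and it did without APAP replicate 2 (log2 0.74, adjusted p = 0.0371). Slc1a4 (ASCT1, chromosome 11, 20302180 to 20332713) had 0.546, 0.802 and 0.565 FPKM in the controls, against 0.410, 0.540 and 0.392 FPKM after APAP. All APAP values were below all control values as deposited and overlapped them after rescaling, and the difference did not pass (log2 -0.32, 95% interval -0.80 to 0.16, limma adjusted p = 0.312). Slc1a4 had 0.470, 0.596 and 0.567 FPKM and Slc1a5 0.741, 0.695 and 0.628 FPKM after dmPGE2 and APAP.

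The question of the second comparison was what dmPGE2 given before the overdose changes. No tested member passed between dmPGE2+APAP and APAP livers, nor did any other gene: limma called 0% of the 11557 genes, with a smallest adjusted p of 0.147. Before adjustment 1077 genes (9.32%) had p under 0.05, and 2 of the 9 members, Slc7a1 and Slc38a2, were among them. After rescaling, Slc38a2 and Slc7a2 were higher and Slc7a1 and Slc3a2 lower without overlap of the groups, where 8.44% of all tested genes were higher and 7.89% lower in this way.

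Slc7a1 was at 1.34, 1.40 and 1.04 FPKM in dmPGE2+APAP livers, below all APAP libraries (2.02 to 2.47) and above all controls. The difference from APAP was -0.74 on the log2 scale (95% interval -1.10 to -0.39, unadjusted p = 0.00103, limma adjusted p = 0.273). Slc38a2 went the other way, at 129, 161 and 167 FPKM against 102 to 116 in APAP livers (log2 0.49, 95% interval 0.21 to 0.76, unadjusted p = 0.00308, limma adjusted p = 0.316). Neither difference passed over all genes.

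Slc3a2 was at 23.0, 23.9 and 25.2 FPKM, all below the lowest APAP library (25.8), with a log2 difference of -0.21 (95% interval -0.43 to 0.02). Slc7a2 was at 173, 202 and 216 FPKM, all above the APAP libraries, with a log2 difference of 0.34 (95% interval -0.35 to 1.03). Slc7a11 was at 0.319, 0.0586 and 0.0481 FPKM. Replicate 1 of dmPGE2+APAP lay above APAP replicate 2, so the groups overlapped. In the fit of all genes above 0 the log2 difference was -1.74 (95% interval -2.98 to -0.51, unadjusted p = 0.0111, limma adjusted p = 0.408). It was -0.57 with 1 FPKM added and -2.46 with 0.01 added.

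The other 5 members overlapped between the treated groups. Their log2 differences were 0.25 for Slc38a4 (95% interval -0.12 to 0.63), 0.10 for Slc38a3 (-0.17 to 0.37), 0.12 for Slc7a5 (-0.14 to 0.37), 0.25 for Slc1a4 (-0.23 to 0.73) and -0.43 for Slc1a5 (-0.94 to 0.07). These intervals leave room for changes of either sign in each of the 5.

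**Figure D2:**
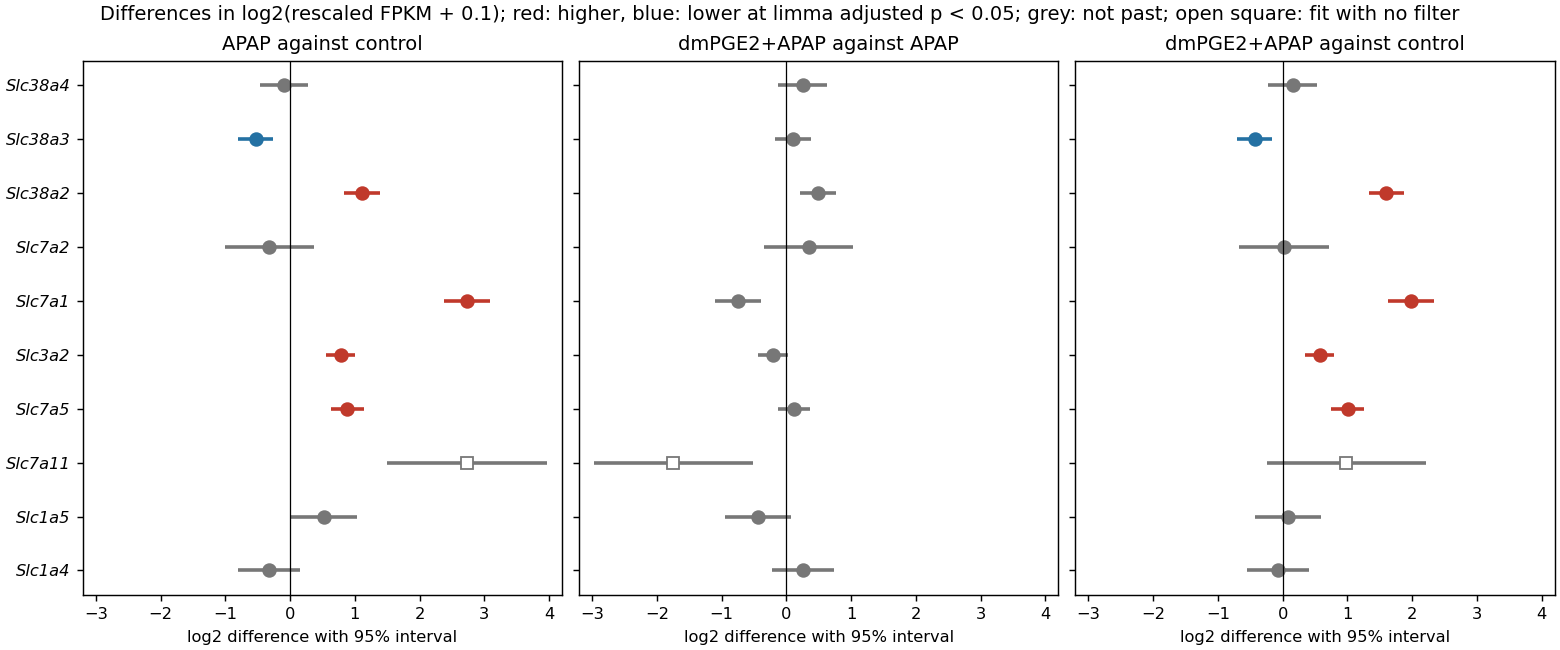
Difference in log2(rescaled FPKM + 0.1) of each gene (horizontal axes) with its 95% interval in the 3 comparisons; red is higher and blue lower past the threshold, grey did not pass, and the open square is Slc7a11 from the fit of all 17519 genes, drawn without a call colour. In the middle panel no gene passes, and the intervals of Slc7a1, Slc38a2 and Slc7a11 lie off 0 before adjustment.

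Against saline controls, which both treated groups share, dmPGE2+APAP livers had the same 4 members higher and Slc38a3 lower, where 16.4% of all tested genes passed, 8.64% higher and 7.72% lower. Slc38a2 rose 3.04-fold (log2 1.60, SE 0.122, limma adjusted p = 0.000129) and Slc7a1 3.95-fold (log2 1.98, SE 0.157, adjusted p = 0.00015). The size for Slc7a1 rests on the added constant: the log2 difference was 0.876 with 1 FPKM added and 2.31 with 0.01 added. For Slc38a2 these were 1.59 and 1.60, so which of these 2 genes rose more depends on the constant. Slc7a5, at 2.17, 2.6 and 2.16 FPKM, rose 2-fold (log2 1.00, SE 0.112, adjusted p = 0.000739). Slc3a2 rose 1.49-fold (log2 0.57, SE 0.1, adjusted p = 0.00609). All libraries of these 4 genes were above all controls, as deposited and after rescaling. After rescaling, 19% of all tested genes were higher without overlap in this comparison and 18.9% lower.

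Slc38a3 was at 204, 205 and 187 FPKM in dmPGE2+APAP livers, below all controls, and fell to 0.742 of control (log2 -0.43, SE 0.12, limma adjusted p = 0.0401). That call was lost in 6 of the 9 fits that left out 1 library, without control replicate 2 or 3, APAP replicate 1 or any dmPGE2+APAP library (adjusted p of 0.0763, 0.0614, 0.0616, 0.0742, 0.111 and 0.128). The remaining members did not pass: log2 differences were 0.15 for Slc38a4, -0.07 for Slc1a4 and 0.09 for Slc1a5. That of Slc7a2 was 0.02, and without control replicate 3 it was -0.41 and passed (adjusted p = 0.0465). Slc7a11 had a log2 difference of 0.99 in the fit of all genes above 0 (95% interval -0.25 to 2.22, limma adjusted p = 0.307), where 9.81% of those genes passed, and it was 0.175 with 1 FPKM added and 2.62 with 0.01 added.

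Summed over the 10 members, FPKM was 1264 on average in controls, 1057 in APAP livers and 1245 in dmPGE2+APAP livers, and Slc38a4, Slc38a3, Slc38a2 and Slc7a2 made up 98.4%, 96.7% and 97.7% of it. Ratios between carriers within a library do not depend on the scaling between libraries. In controls Slc7a1 made up 0.0992%, 0.0838% and 0.242% of the summed FPKM of both CAT genes. In APAP livers this share was 1.54%, 1.30% and 1.30%, and in dmPGE2+APAP livers 0.770%, 0.688% and 0.480%. The 3 groups did not overlap. With 3 against 3 this fixes the exact two-sided permutation p of each pair at 0.1, its smallest value, so the test adds nothing further. Between the treated groups neither Slc7a1 nor Slc7a2 passed (limma adjusted p = 0.273 and 0.761). The highest control share was that of replicate 3, the control with the least Slc7a2 (122 FPKM). Slc7a2 thus supplied nearly all CAT mRNA in every library.

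In system A, Slc38a2 made up 6.70% to 8.77% of the summed FPKM of Slc38a2 and Slc38a4 in controls, 13.9% to 19.0% in APAP livers and 17.3% to 19.2% in dmPGE2+APAP livers. Both treated groups were above all controls (exact permutation p = 0.1 each), and they overlapped each other (p = 0.2). The ratio of Slc38a2 to Slc38a3 was 0.148 to 0.223 in controls, 0.518 to 0.649 in APAP livers and 0.634 to 0.895 in dmPGE2+APAP livers. Slc38a2 rose while Slc38a3 fell in both treated groups, so this ratio moved more than either gene.

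Slc3a2 can be set against the summed FPKM of 6 genes of its light chains (Slc7a5, Slc7a6, Slc7a7, Slc7a8, Slc7a10 and Slc7a11). The heavy chain was at 4.78 to 5.35 times their sum in controls, 5.11 to 6.51 times in APAP livers and 4.87 to 6.16 times in dmPGE2+APAP livers, and the groups overlapped. Within the light chains the Slc7a11 share went from 0.0898% to 0.813% in controls up to 16.6%, 5.58% and 19.6% in APAP livers. In dmPGE2+APAP livers it was 6.77%, 1.27% and 1.18%, with replicate 1 inside the APAP range (exact permutation p = 0.2 against APAP).

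**Figure D3:**
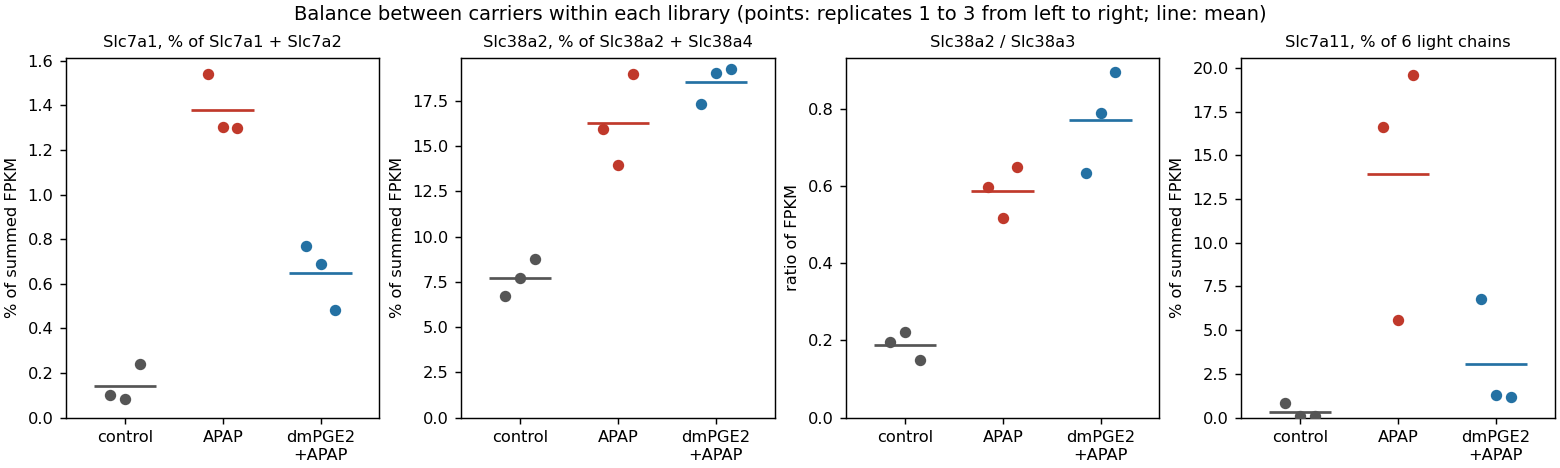
Balance between carriers in each library: share of summed FPKM in percent, or ratio of FPKM (vertical axes, starting at 0), by group; points are libraries and lines are means. The Slc7a1 share separates the 3 groups, while the Slc38a2 share and both other measures overlap between the treated groups.

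Across the 9 libraries the members followed different courses. As a description over libraries that share groups, log2 values of Slc7a5 and Slc38a2 had a Pearson r of 0.96, Slc7a1 and Slc3a2 of 0.96, and Slc3a2 and Slc38a3 of -0.95. Slc7a2 and Slc38a4, both low in control replicate 3, had an r of 0.83, and Slc7a11 was nearest to Slc1a5 (0.87). Outside the members, the genes closest to Slc7a11 were Bach1, a haem-regulated transcriptional repressor (r = 0.99, with 15.3, 31.2 and 18.4 FPKM in control, APAP and dmPGE2+APAP livers), Mnt, a Max-binding repressor (0.98), and Insc (0.98). Those closest to Slc38a2 were Cnnm3 (0.99), Foxo3, a forkhead factor restrained by insulin (0.98, with 16.9, 28.4 and 35.6 FPKM), and 8030462N17Rik (0.98). Slc7a2 was closest to Dag1, Slc22a3 and Psmc4 (all 0.96) and Slc38a4 to Tdo2, Ugt3a2 and Ctso (all 0.96). These were picked as the highest values among all tested genes, and the 9 points share the 3 groups.

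A list of other amino acid carriers held 55 genes of the gene-level data, and 27 were tested. In APAP livers 4 of the 27 were higher and 4 lower (14.8% each, beside 11.2% and 9.73% of all tested genes), with a median log2 difference of -0.07. Against controls, dmPGE2+APAP livers had 3 higher and 2 lower (11.1% and 7.41%, beside 8.64% and 7.72% of all tested genes). Between the treated groups limma called 0 of the 27.

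In the SLC7 and SLC3 families none of the 3 other tested genes passed (Slc7a7, Slc7a8 and Slc3a1). Slc7a12, Slc7a13 and Slc7a14 were listed at 0 in every library. In the SLC38 family 1 of 4 passed: Slc38a7, a glutamine carrier of lysosomes, was lower in APAP livers (4.63 against 6.70 FPKM, log2 -0.40, limma adjusted p = 0.034). That call was lost in 6 of the 9 fits without 1 library (leaving out control 1, any APAP library, or dmPGE2+APAP 2 or 3 gave adjusted p from 0.0526 to 0.0896). In the SLC1 family the glutamate carrier gene Slc1a2 was the only other gene tested. It was lower, at 22.7 against 52.3 FPKM (log2 -1.07, limma adjusted p = 0.0405), a call lost in 5 of the 9 fits (leaving out control 1 or 2, APAP 1 or 3, or dmPGE2+APAP 2 gave adjusted p from 0.0608 to 0.123).

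Of 10 other tested carriers of the plasma membrane 2 were higher and 2 lower in APAP livers. Slc6a6, the taurine transporter, fell from 32 to 12.2 FPKM (log2 -1.28, limma adjusted p = 0.000424) and was at 14.2 FPKM in dmPGE2+APAP livers (log2 -1.04 against control, adjusted p = 0.00138). Slc43a3, which carries nucleobases and is in the list by its family, rose from 11.4 to 15.8 and 17.6 FPKM (log2 0.58 and 0.76, adjusted p = 0.00319 and 0.00108). Both kept their calls in every fit without 1 library. Slc43a1, a carrier of branched-chain amino acids, was lower in both treated groups (log2 -0.63 and -0.64, adjusted p = 0.0274 and 0.0307). Those calls were lost in 3 fits (leaving out control 1 or 2 or APAP 3, adjusted p up to 0.0864) and 4 fits (leaving out control 1 or 2 or dmPGE2+APAP 2 or 3, adjusted p up to 0.1). Slc6a9, a glycine carrier, was higher in APAP livers (log2 0.36, adjusted p = 0.022), a call lost in 4 fits (leaving out control 1 or 2 or APAP 1 or 2, adjusted p up to 0.0651) and without rescaling.

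Of 9 tested carriers of lysosomes and mitochondria 2 were higher in both treated groups and none lower. Slc25a29, a mitochondrial carrier of basic amino acids, rose from 1.30 to 3.39 and 3.59 FPKM (log2 1.44 and 1.55, limma adjusted p = 0.00202 and 0.00166). Slc25a2, a mitochondrial ornithine carrier, rose from 0.367 to 0.899 and 0.780 FPKM (log2 1.19 and 1.02, adjusted p = 0.011 and 0.0253). The call of Slc25a2 in dmPGE2+APAP livers was lost when control 2 or 3 or dmPGE2+APAP 2 or 3 was left out (adjusted p from 0.051 to 0.088).

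**Figure D4:**
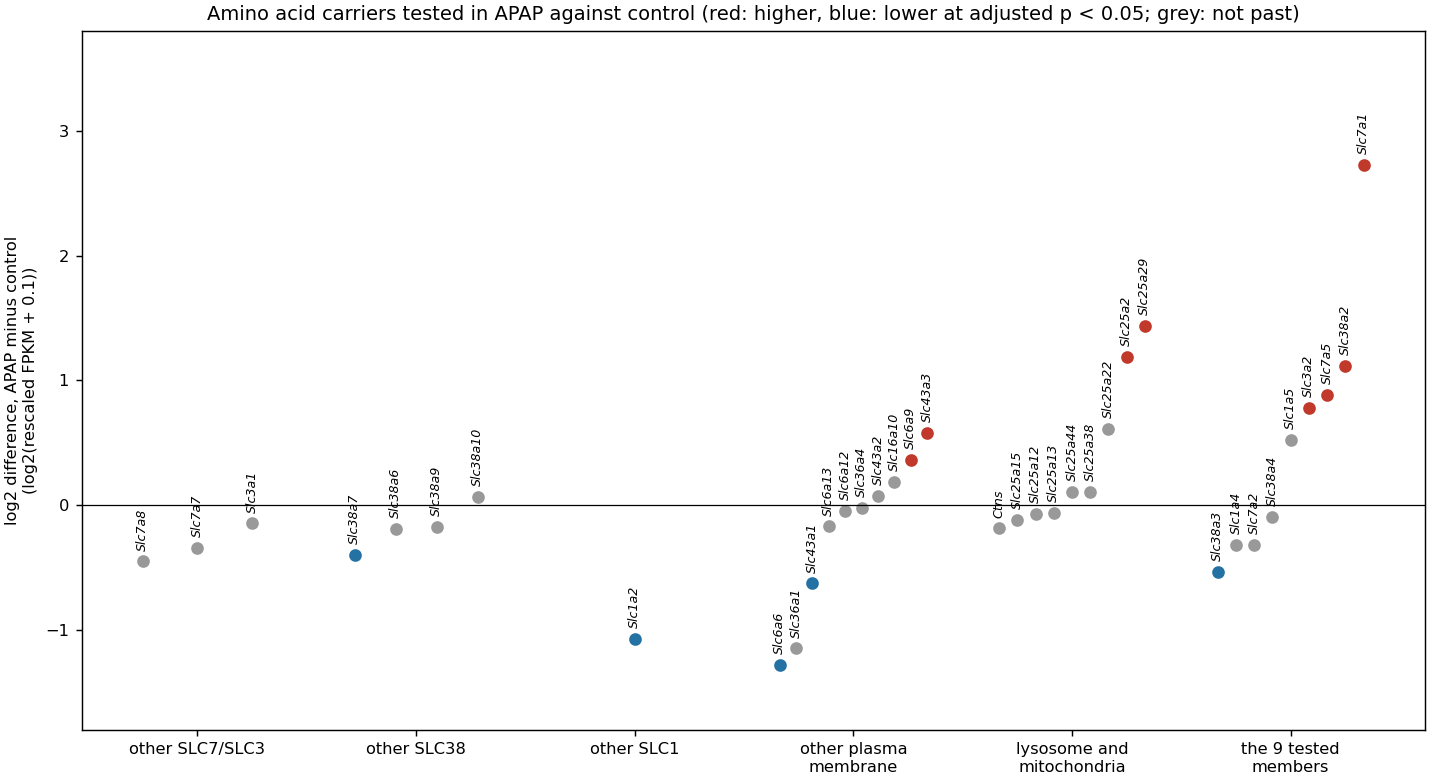
Log2 difference of APAP from control (vertical axis) for the 27 other tested carriers by group, and for the 9 tested members at the right; red is higher and blue lower past the threshold, grey did not pass. Slc7a1 lies highest, and Slc6a6 lies lowest.

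Genes of the ATF4 response other than carriers gave a frame for the members. Of 23 tested, 13 were higher and none lower in APAP livers (median log2 difference 0.84), and 12 were higher and none lower in dmPGE2+APAP livers against control (median 0.71). The other 10 and 11 did not pass. Over all tested genes 11.2% and 8.64% were higher, with medians of -0.02 and -0.01. Psat1, an enzyme of serine synthesis, went from 0.414 to 4.89 FPKM in APAP livers (log2 3.38, limma adjusted p = 7.43e-05). It was at 1.68 FPKM in dmPGE2+APAP livers, also higher than in controls (log2 1.92, limma adjusted p = 0.00133). Its difference between the treated groups did not pass (log2 -1.47, adjusted p = 0.189). Chac1, which degrades glutathione, went from 0.979 to 5.87 and 7.72 FPKM (log2 2.56 and 2.95 against control, adjusted p = 9e-04 and 0.00058). Ddit4, an inhibitor of mTORC1, went from 2.84 to 8.91 and 34.7 FPKM. Its rise in APAP livers (log2 1.76, adjusted p = 0.0354) was lost when control 2 or 3 or any APAP library was left out (adjusted p from 0.0581 to 0.102), and its rise in dmPGE2+APAP livers (log2 3.63, adjusted p = 0.00196) was not. Atf3, Ddit3 and Ppp1r15a rose in both treated groups (log2 from 1.92 to 7.96).

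Next to cystine uptake stood 10 tested genes of cystine use and glutathione synthesis. Over all tested genes 11.2% were higher in APAP livers and 8.64% in dmPGE2+APAP livers than in controls. Chac1 and Cth are also in the ATF4 list above, so the 2 lists are not separate. Of the 10, 1 was higher in dmPGE2+APAP livers, and it was Chac1. In APAP livers 3 were higher and none lower (median log2 difference 0.16). They were Chac1, Gclc, the catalytic subunit of the first step of glutathione synthesis (56.7 to 118 FPKM, log2 1.20, limma adjusted p = 0.00462), and Ggct, which acts on glutathione breakdown products (0.716 to 1.41 FPKM, log2 1.00, adjusted p = 0.0135). The Ggct call was lost without APAP replicate 3 (adjusted p = 0.051). In dmPGE2+APAP livers Gclc was at 79.0 FPKM, and neither its difference from control (adjusted p = 0.0681) nor that from APAP (adjusted p = 0.463) passed.

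The transcript table deposited beside the gene table lists 25 further transcripts of 8 of the members, mostly annotated as retained introns. Of these 16 reached 0.1 FPKM in at least 3 libraries, and 2 passed over the 22984 transcripts tested, both in APAP against control, where 3.66% of all transcripts passed. None of the 16 passed in the other comparisons, where limma called 0% (dmPGE2+APAP against APAP) and 1.79% (dmPGE2+APAP against control). Slc38a4-AS1, an assembled transcript absent from GENCODE M21 (chromosome 15, 97044146 to 97107180), had 1.44, 1.30 and 1.79 FPKM in the controls, against 0.282, 0.479 and 0.0917 FPKM after APAP, without overlap (log2 -2.20, SE 0.429, limma adjusted p = 0.026). It was at 0.617, 0.95 and 1.17 FPKM in dmPGE2+APAP livers, between the other groups (adjusted p = 0.53 against APAP). The library protocol marks the strand, and whether the quantification used it is not given in the sources used here, so reads of Slc38a4 and of this transcript cannot be told apart with certainty. The call was lost when any control or APAP 1 or 3 was left out (adjusted p from 0.0634 to 0.0823) and with no filter on low values (0.0515).

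Slc7a1-204, an intron-retaining transcript of Slc7a1, had 0.0683, 0.0507 and 0.00488 FPKM in the controls, against 0.361, 0.202 and 0.270 FPKM after APAP (log2 1.40, limma adjusted p = 0.0443). This call was lost in each of the 9 fits without 1 library (adjusted p from 0.0522 to 0.136), with 1 or 0.01 FPKM added (0.0653 and 0.0669) and with no filter (0.0826). Slc7a11-204, an intron-retaining transcript at the 5′ end of Slc7a11, was at 0.499, 0.102 and 0.445 FPKM in APAP livers and at most 0.0115 FPKM in controls (log2 1.93, adjusted p = 0.0519). Like the gene row, it was lowest in replicate 2 among APAP libraries and highest in replicate 1 (0.179 FPKM) among dmPGE2+APAP libraries.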

How the data were processed

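RNA of mouse liver was sequenced after removal of ribosomal RNA, per the labels' protocols, in 9 libraries. The submitters' processing notes name HISAT2 and the build GRCm38 (mm10). The quantifier, annotation release and filters are not given in the sources used here. The authors deposited FPKM per gene (mRNA table) and per transcript (lncRNA table). The deposited files called read counts were treated as a score: in the lncRNA table they equal FPKM times the genomic span in kb times a constant of 60.0 to 78.5 per library, within 1% at scores of 1000 or more. The span includes introns, so they were used in no test. If the scores were made from FPKM that way, the constant would be the depth in megafragments, but no source used here says how they were made. Control columns have a header that matches no label and were assigned because the other headers name both treated groups.

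FPKM were divided by a trimmed mean of log ratios to the mean library (30% trimmed at each end by ratio and 5% by abundance), 0.1 was added and log2 taken. limma 3.58.1 (R 4.3.3) fitted 3 group means to all 9 libraries with an abundance trend and 6 residual degrees of freedom, two-sided, without a replicate block. Transcripts needed 0.1 FPKM in 3 libraries and were rescaled by factors from the gene and transcript rows together. These differ from the factors of the genes. In APAP against control, Slc38a4-AS1 had a log2 difference of -2.194 without rescaling and -2.196 with it. Slc7a1-204 had 1.425 without and 1.400 with it. The fit was tested on simulated data. Deposited FPKM summed to 371958.2 to 393937.6 per library, and 9979 to 10321 genes reached 1 FPKM. All 10 members are named; of each gene list at most 6 genes were named, those past the threshold with the largest difference. Slc7a7, Slc7a8, Slc3a1, Slc7a12, Slc7a13 and Slc7a14 are named beyond this rule, after their values were seen. Similar genes are the 3 with the highest correlation to each of 4 members. The members and lists were chosen with earlier results of these data known. Alternatives covered scaling, added constant, filter, libraries in the fit, variance model, replicate block and leaving out each library. Those for Slc7a11 without a filter and for transcripts were chosen after seeing the data.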

Additional observations from a re-analysis of the deposited data

How the results depend on the processing

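The 4 members higher in each treated group kept their calls under every alternative tried, including no rescaling, an added constant of 1 or 0.01 and each left-out library. The count of members lower in APAP livers than in controls (1) ranged from 0, without APAP replicate 3, to 2, without control replicate 3, over left-out libraries. The count lower in dmPGE2+APAP livers than in controls (1) was 0 with no filter, with only the 6 libraries compared and with the replicate block, and ranged from 0 to 1 over left-out libraries. Differences that had not passed turned sign as follows. Slc7a2 in dmPGE2+APAP against control was -0.115 with no rescaling, -0.019 with upper quartile scaling, -0.411 without control replicate 3 and -0.054 without dmPGE2+APAP replicate 3. Slc1a5 in the same comparison was -0.031 with no rescaling and -0.042 without control replicate 3, Slc1a4 was 0.096 without control replicate 2 and 0.006 without dmPGE2+APAP replicate 1, and Slc38a4 was -0.005 without control replicate 3. Slc38a4 in APAP against control was 0.019 without APAP replicate 3. Over all left-out libraries these ranged from -0.411 to 0.291 (Slc7a2), -0.042 to 0.207 (Slc1a5), -0.159 to 0.096 (Slc1a4) and -0.005 to 0.249 (Slc38a4) in dmPGE2+APAP against control, and from -0.256 to 0.019 for Slc38a4 in APAP against control. The cause was not tested.

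Same-numbered libraries did not deviate together (r of deviations from -0.117 to 0.0715), so the numbers are not taken as pairs, and not every library correlated best with its own number. With the replicate block 2033 and 1470 genes passed against control in APAP and dmPGE2+APAP livers, against 2415 and 1890 without it. The block changed 1 call among the members, that of Slc38a3 in dmPGE2+APAP against control (adjusted p = 0.0813). It also ended the calls of Slc38a7 (0.0528), Slc1a2 (0.0553), Slc6a9 (0.0536) and Seh1l (0.0568) in APAP against control, of Slc25a2 in dmPGE2+APAP against control (0.0516) and of the transcripts Slc38a4-AS1 (0.062) and Slc7a1-204 (0.0936). With no filter the calls of Slc1a2 (0.0586) and Ddit4 (0.0532) in APAP against control and of Slc43a1 (0.0547) and Tat (0.0626) in dmPGE2+APAP against control were lost. With only the 6 libraries compared those of Slc38a7 (0.0786), Slc1a2 (0.0587), Slc43a1 (0.0511) and Seh1l (0.0651) in APAP against control and of Tat (0.0754) in dmPGE2+APAP against control were lost. On FPKM with no rescaling, 31.6% and 28.5% of the called genes were higher, against 53.5% and 52.8%. Between the treated groups limma called 50 genes without dmPGE2+APAP replicate 1 and at most 3 in the other alternatives, no member among them. The depth is not stated, so no counting error could be given for members at low FPKM.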

Other observations

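Of 25 tested genes of amino acid sensing upstream of mTORC1, 2 were higher and 1 lower in APAP livers (median log2 difference -0.10) and 2 were higher in dmPGE2+APAP livers against control. These counts were not above the shares over all tested genes: 11.2% higher and 9.73% lower in APAP livers, and 8.64% higher in dmPGE2+APAP livers. Sesn2 is a leucine sensor and stress gene that was also counted in the ATF4 list. It rose from 4.23 to 9.71 and 9.49 FPKM (log2 1.38 and 1.37, limma adjusted p = 0.0104 and 0.0137), and its calls held in each fit without 1 library. Fnip1, a partner of folliculin, was higher in both treated groups (log2 0.39 and 0.43), and Seh1l, a subunit of the GATOR complex, was lower in APAP livers (log2 -0.32). The Fnip1 calls were lost when control 2 or APAP 3 was left out (adjusted p = 0.0819), and when control 2 or dmPGE2+APAP 2 or 3 was (adjusted p up to 0.0846). Both were also lost with no rescaling (adjusted p = 0.102 and 0.0971). That of Seh1l was lost when control 1 or APAP 1 or 3 was left out (adjusted p up to 0.0754).

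For the hepatic use of glutamine, arginine and alanine 17 genes were tested. In APAP livers 1 was lower and none higher, beside 9.73% and 11.2% of all tested genes. It was Glul, the glutamine synthetase (415 to 157 FPKM, log2 -1.29, limma adjusted p = 0.00259). In dmPGE2+APAP livers 2 of the 17 were higher than in controls, where 8.64% of all tested genes were. These were Tat and Sds, which degrade tyrosine and serine (log2 1.64 and 1.55, limma adjusted p = 0.0347 and 0.0229). Both calls were lost without any of the dmPGE2+APAP libraries, and that of Tat also when APAP 1 or 2 was left out (adjusted p up to 0.095).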
